A study of Mus musculus with 10 samples.

Results

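Gi-coupled receptors that restrain lipolysis were examined in BAT of control and Stat5Adipoq mice. The 8 receptor genes were taken by name from the known antilipolytic receptors of adipocytes, with earlier results of these data known. They comprised Hcar1, Hcar2, Ffar2, Cnr1, Adora1, Ptger3, Npy1r and Adra2a. All 8 were among the 24454 genes counted, and 7 of them were among the 13568 genes that passed the filter on low counts and were tested. Adra2a did not pass it. Stat5Adipoq mice lack Stat5a and Stat5b in adipocytes through a Cre recombinase driven by the Adipoq promoter, so that endothelial, immune, stromal and nerve-associated cells of BAT keep both genes. The methods describe the controls as littermates with floxed Stat5 alleles and no Cre, and the labels give them as wild type. All mice were males on the C57BL/6N background, were 2 months old, were fed ad libitum and received no stimulus, and 1 RNA-Seq library was made per mouse, with 5 libraries per genotype. On GRCm38 the genes beside Hcar1 and Hcar2 lie at chr4:33923171-33948831 (Cnr1), chr1:134199215-134235457 (Adora1), chr3:157566821-157644758 (Ptger3), chr7:30818031-30823775 (Ffar2), chr8:66697149-66706800 (Npy1r) and chr19:54045259-54048982 (Adra2a).

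Receptors coupled to Gs raise cAMP in adipocytes by activating adenylyl cyclase, and cAMP activates protein kinase A and thereby lipolysis and, in brown adipocytes, heat production. Receptors coupled to Gi act on the same enzyme in the opposite direction, and several of them are bound by products of the adipocyte or its surroundings, such as lactate, ketone bodies, adenosine, prostaglandin E2 and endocannabinoids. They are therefore regarded as brakes on the β-adrenergic signal in adipose tissue.

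The libraries held 8488129 to 19514904 counts on genes in control and 9401827 to 15686868 in Stat5Adipoq BAT. Values are CPM, counts on a gene relative to the total of the library and scaled by the TMM method of edgeR, and means are given ± SD over the 5 libraries of a genotype. Stat5a was 86.9 to 130.4 CPM in control and 15.8 to 20.7 CPM in Stat5Adipoq BAT, and Stat5b was 76.6 to 91.9 CPM and 21.0 to 22.9 CPM. All 10 brown adipocyte markers passed the filter, and their summed level was 19340 to 30390 CPM in control and 21260 to 26630 CPM in Stat5Adipoq BAT. Of the libraries, control replicate 3 stood apart by its summed skeletal muscle markers, which reached 3824 CPM there, up to 308.7 CPM in the remaining controls and up to 44.0 CPM in Stat5Adipoq BAT. Liver markers summed to 60.7 to 286.8 CPM in control and 31.2 to 85.4 CPM in Stat5Adipoq BAT, and Schwann cell markers to 115.5 to 463.8 CPM and 196 to 289.5 CPM. Of the markers tested, edgeR called 0 of 10 for skeletal muscle, 1 of 9 for liver, which was lower, and 1 of 8 for Schwann cells, which was higher. DESeq2 called 4 for skeletal muscle, all lower. The log2 fold changes were below 0 for 10, 9 and 7 of these markers, with medians of -5.56, -2.86 and -1.29. Their unadjusted p from edgeR was below 0.05 for 10, 3 and 7, against 15.2% of all tested genes, of which edgeR called 2.71%. The part of these tissues in the receptor values was not tested, and receptor results are given without control replicate 3 where they differ. In bulk tissue, fewer cells of a type and less RNA per cell cannot be told apart.

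Promoters of 7 of the 8 genes, all but Hcar2, are listed in RefSeq on GRCm38.p6, with 13 start sites in all, and the 250 bases before each start were read. The sequences of Cnr1, Ffar2 and Hcar1 are shown because the mRNA of these genes was at least 2-fold lower in Stat5Adipoq BAT on average, and that of Adora1 because it was not. Where a gene had several listed starts, only the one farthest upstream among them is shown. For Cnr1 this stretch lies inside the gene position given above, and the bases before chr4:33923171 were not read. Sequences run 5′ to 3′ on the strand of the gene, and capitals mark motifs found on either strand, which in these 4 were all GGGCGG, a GC box of the kind bound by Sp1-type factors.
Cnr1, chr4:33924014-33924263, plus strand: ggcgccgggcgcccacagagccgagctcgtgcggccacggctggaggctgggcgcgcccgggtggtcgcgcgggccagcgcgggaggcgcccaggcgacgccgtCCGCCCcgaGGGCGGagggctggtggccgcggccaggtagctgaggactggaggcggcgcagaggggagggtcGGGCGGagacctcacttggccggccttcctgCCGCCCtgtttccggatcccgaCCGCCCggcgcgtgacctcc
Adora1, chr1:134235458-134235707, minus strand: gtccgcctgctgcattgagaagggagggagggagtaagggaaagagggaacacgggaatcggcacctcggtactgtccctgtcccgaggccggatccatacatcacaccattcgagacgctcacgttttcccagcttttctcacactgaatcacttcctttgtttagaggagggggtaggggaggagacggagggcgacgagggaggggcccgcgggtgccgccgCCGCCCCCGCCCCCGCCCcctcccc
Hcar1, chr5:123880004-123880253, minus strand: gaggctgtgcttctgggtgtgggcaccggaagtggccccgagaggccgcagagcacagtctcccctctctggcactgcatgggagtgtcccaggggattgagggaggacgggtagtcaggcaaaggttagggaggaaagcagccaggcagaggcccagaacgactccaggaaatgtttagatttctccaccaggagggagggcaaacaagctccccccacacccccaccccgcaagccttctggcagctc
Ffar2, chr7:30823776-30824025, minus strand: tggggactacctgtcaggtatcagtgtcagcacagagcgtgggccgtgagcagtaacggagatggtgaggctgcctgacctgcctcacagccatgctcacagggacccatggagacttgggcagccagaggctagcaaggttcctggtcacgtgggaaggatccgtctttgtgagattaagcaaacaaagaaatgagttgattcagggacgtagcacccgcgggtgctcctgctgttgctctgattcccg
The Cnr1 stretch held 5 such words and a GC content of 79.2%, and the Adora1 stretch held 3 with a GC content of 64.4%. The stretches of Hcar1 and Ffar2 held none, with a GC content of 62.4% and 56.8%. Of 32851 promoters of this length, 32.7% held GGGCGG. The CCAAT box was searched as well and was in 33.8% of all promoters, the TATAAA word in 12.4% and TTCNNNGAA in 7.02%, and none of the 4 promoters shown held any of them. The starts of a gene differed, however. The Cnr1 and Adora1 starts not shown held no GGGCGG. For Ffar2, the overlapping stretches chr7:30821193-30821442 and chr7:30821140-30821389 held 1 GGGCGG each, and the second also held a CCAAT box. TTCNNNGAA, the palindrome that STAT5 is known to bind, was in none of the 13 receptor promoters, which says only that these letters are not in these windows.

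Among the 7 tested receptors, Cnr1 was lower in Stat5Adipoq BAT by the quasi-likelihood test of edgeR, and none was higher. Of all tested genes, 1.31% were called lower and 1.40% higher, together 2.71%. Hcar1, Hcar2 and Ffar2 were lower by factors of 2.60 to 2.74 on average but missed the threshold, with adjusted p-values between 0.052 and 0.072. Adora1, Ptger3 and Npy1r had log2 fold changes between -0.33 and 0.24 and were not called. DESeq2, run on the same counts, called 4 of the 7 lower, namely Cnr1, Hcar1, Hcar2 and Ffar2, where it called 2.46% of all genes lower and 4.86% in either direction. limma-voom called Cnr1 and Ffar2 lower, with 1.37% of all genes. The unadjusted p-value from edgeR was below 0.05 for 5 of the 7, against 15.2% of all genes. These 5 include Adora1, which was higher in Stat5Adipoq BAT. The log2 fold change was at or below -1 for 4 of the 7, against 2.43% of all genes. It was below 0 for 6 of the 7 and for 50.8% of all genes, with a median of -1.38 over the 7 receptors and -0.003 over all tested genes. Because the receptors were chosen with earlier results of these data known, these shares are a description and not an unbiased comparison. The edgeR count was 3 of 7 without control replicate 3, 2 without control replicate 5 and 4 without Stat5Adipoq replicate 1.

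**Figure D1:**
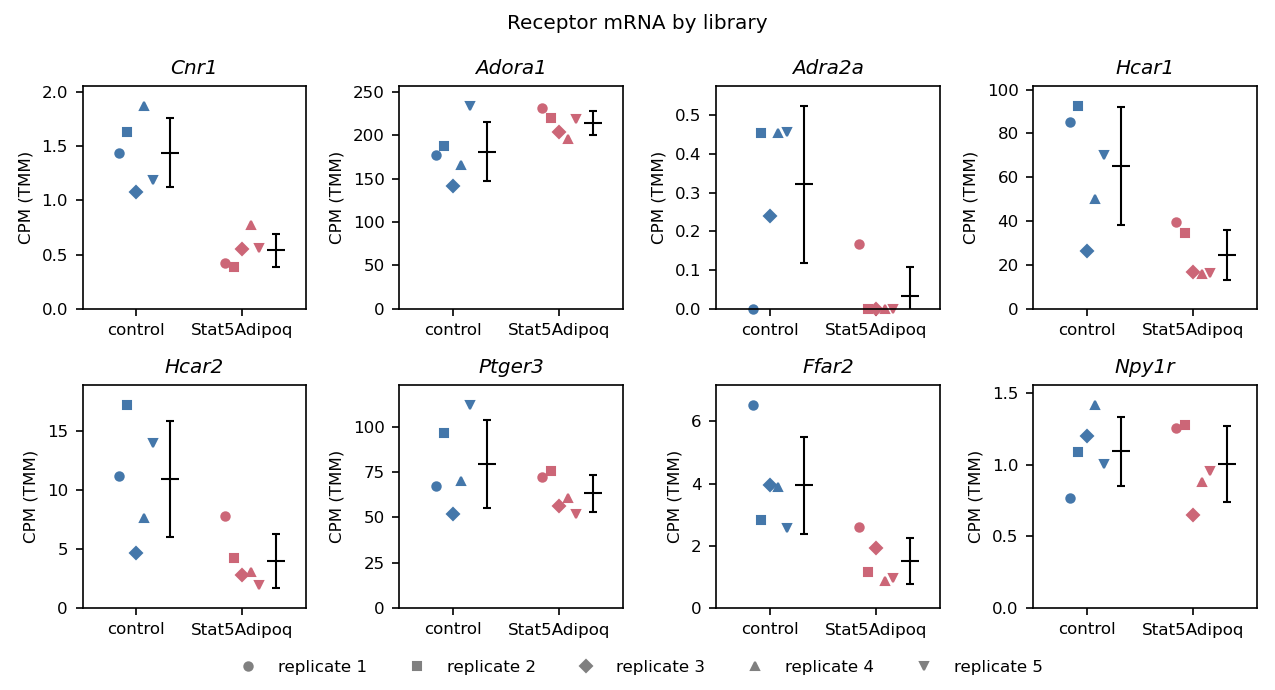
CPM scaled by TMM (y axis, linear from 0) of the 8 receptor genes in control (blue) and Stat5Adipoq (red) BAT. Each point is 1 library with its replicate number as the shape, and the bar beside each genotype is the mean ± SD (n = 5). Only in Cnr1 do the genotypes not overlap, with control libraries from 1.08 to 1.87 CPM and Stat5Adipoq libraries from 0.385 to 0.771 CPM.

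Hcar1 encodes the receptor for lactate, through which lactate made in fat tissue lowers lipolysis. Its mRNA was 85.4, 92.4, 26.5, 50.0 and 70.4 CPM in control replicates 1 to 5 and 39.5, 34.5, 16.8, 15.6 and 16.5 CPM in Stat5Adipoq replicates 1 to 5. Control replicate 3 lay below the 2 highest Stat5Adipoq libraries, replicates 1 and 2, and the other controls lay above all Stat5Adipoq libraries. The mean was 64.9 ± 27.0 CPM in control and 24.6 ± 11.5 CPM in Stat5Adipoq BAT, a 2.62-fold difference with a 95% confidence interval of 1.56 to 4.42. On the log2 scale the change was -1.39 (standard error 0.35, adjusted p = 0.056 from edgeR, 0.019 from DESeq2), and the exact permutation test of log2 CPM gave p = 0.0317. The adjusted p from edgeR was 0.011 without control replicate 3 and 0.036 without Stat5Adipoq replicate 1, and in the other 8 fits with a library left out it did not pass the threshold, with values up to 0.15. DESeq2 called the gene in 4 of its 10 such fits.

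Hcar2 encodes the receptor for β-hydroxybutyrate and the target of niacin, an old antilipolytic drug. It lies next to Hcar1 on chromosome 5 and on the same minus strand, Hcar2 at 123863570 to 123865516 and Hcar1 at 123876739 to 123880003, with 11222 bases between them and a single exon each. Hcar2 mRNA was 11.2, 17.2, 4.69, 7.63 and 14.0 CPM in control replicates 1 to 5 and 7.80, 4.23, 2.77, 3.09 and 1.92 CPM in Stat5Adipoq replicates 1 to 5. Stat5Adipoq replicate 1 lay above control replicates 3 and 4, and the remaining Stat5Adipoq libraries lay below all controls. The means were 10.9 ± 4.95 CPM and 3.96 ± 2.30 CPM, which is 2.74-fold with a 95% confidence interval of 1.53 to 4.90. The adjusted p was 0.072 from edgeR and 0.033 from DESeq2, and the exact permutation test gave p = 0.0238. Without control replicate 3 the adjusted p from edgeR was 0.024, and without Stat5Adipoq replicate 1 it was 0.020. DESeq2 called the gene in 5 of its 10 fits with a library left out.

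The 2 hydroxycarboxylic acid receptors varied together over the libraries. The ratio of Hcar1 to Hcar2 CPM was 5.03 to 7.62 in control and 5.06 to 8.58 in Stat5Adipoq BAT, whereas Hcar1 itself ranged from 15.6 to 92.4 CPM. Likeness to a receptor was measured as the root mean square difference of mean-centred log2 CPM over the 10 libraries, among genes with at least 50 counts on average and an SD within 1.5 times that of the receptor. Of 146 such genes, Hcar2 was the most like Hcar1, at 0.269, followed by Trabd2b at 0.321 and Apcdd1 at 0.326. Starting from Hcar2, Hcar1 was the most like of 123 genes, followed by Apcdd1 at 0.284 and B3galt2 at 0.330. The median difference was 1.18 for the genes compared with Hcar1 and 1.28 for those compared with Hcar2. The values include the difference between the genotypes, and no 50-base word of either gene was shared with another gene.

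**Figure D2:**
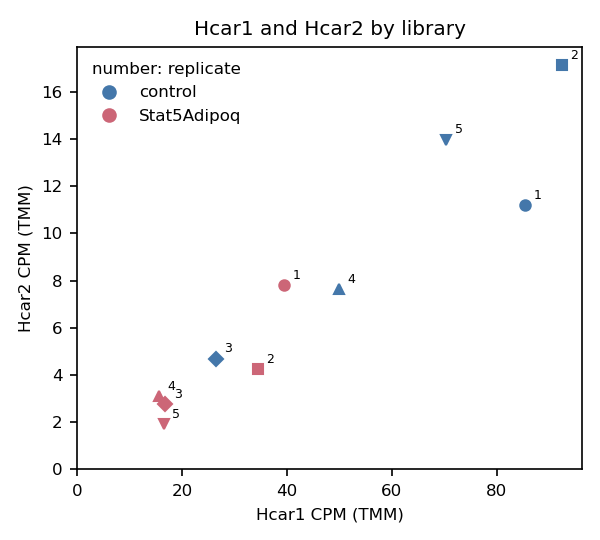
CPM scaled by TMM of Hcar1 (x axis) and Hcar2 (y axis), both on linear axes from 0, with 1 point for each of the 10 libraries, the genotype as colour and the replicate number beside it. The ratio of the 2 genes lies between 5.03 and 8.58 in all libraries, and control replicate 3 at 26.5 and 4.69 CPM lies among the Stat5Adipoq libraries.

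Ffar2 encodes a receptor for short-chain fatty acids such as acetate and is also known from neutrophils and other leukocytes. Its mRNA was 6.51, 2.81, 3.97, 3.89 and 2.56 CPM in control replicates 1 to 5 and 2.60, 1.15, 1.94, 0.881 and 0.959 CPM in Stat5Adipoq replicates 1 to 5. The genotypes overlapped only through Stat5Adipoq replicate 1, which lay just above control replicate 5. With an average of 32.7 counts per library, the means were 3.95 ± 1.56 CPM and 1.51 ± 0.741 CPM, a 2.60-fold difference with a 95% confidence interval of 1.57 to 4.33. The log2 fold change was -1.38 (standard error 0.34, adjusted p = 0.052 from edgeR, 0.0031 from DESeq2 and 0.041 from limma-voom), and the exact permutation test gave p = 0.0159. The adjusted p from edgeR was 0.046 without control replicate 5 and 0.023 without Stat5Adipoq replicate 1, and DESeq2 called Ffar2 in all 10 fits with a library left out. Macrophage markers summed to 157.0 to 211.5 CPM in control and 133.2 to 173.3 CPM in Stat5Adipoq BAT, with 0 of 10 called and 8 below 0 on the log2 scale. Of 8 neutrophil markers 3 were tested, all 3 below 0 on the log2 scale, and none was called. The sum of all 8 was 2.01 to 8.90 CPM in control and 1.43 to 5.63 CPM in Stat5Adipoq BAT. Cxcr2, Mmp8, Ly6g, Camp and Retnlg did not pass the filter. The part of leukocytes in the Ffar2 and Hcar2 values was not tested.

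Cnr1 encodes the cannabinoid receptor CB1, which binds anandamide and 2-arachidonoylglycerol. Its mRNA was 1.44, 1.63, 1.08, 1.87 and 1.19 CPM in control replicates 1 to 5 and 0.419, 0.385, 0.554, 0.771 and 0.559 CPM in Stat5Adipoq replicates 1 to 5. All controls lay above all Stat5Adipoq libraries, a separation seen in 1 of the 7 tested receptors and in 4.39% of all tested genes, 2.04% with the lower values in Stat5Adipoq BAT. The counts behind these values were 15, 18, 9, 37 and 13 in control and 5, 6, 6, 7 and 7 in Stat5Adipoq BAT. The mean was 1.44 ± 0.322 CPM in control and 0.538 ± 0.152 CPM in Stat5Adipoq BAT, 2.75-fold lower with a 95% confidence interval of 1.82 to 4.15. The log2 fold change was -1.46 (standard error 0.27, adjusted p = 0.015 from edgeR, 0.0055 from DESeq2 and 0.013 from limma-voom), and the exact permutation test gave p = 0.0079, the smallest possible. Both edgeR and DESeq2 called Cnr1 in all 10 fits with a library left out, with an adjusted p of 0.011 to 0.048 from edgeR. Cnr1 is also expressed by nerve cells, for which only 1 of 8 markers passed the filter. The summed neuronal markers were 2.20 to 3.45 CPM in control and 2.86 to 4.87 CPM in Stat5Adipoq BAT, with Th at 0 in all libraries, and the part of nerve tissue in Cnr1 was not tested.

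Adora1 encodes the adenosine A1 receptor, the classical antilipolytic adenosine receptor of adipocytes. Its mRNA was 177, 187, 142, 166 and 234 CPM in control replicates 1 to 5 and 231, 220, 203, 196 and 219 CPM in Stat5Adipoq replicates 1 to 5. Control replicate 5 was the highest of the 10 libraries, and the other controls lay below all Stat5Adipoq libraries. The means were 181 ± 33.8 CPM and 214 ± 14.0 CPM, 1.18-fold higher in Stat5Adipoq BAT. The log2 fold change of 0.24 (standard error 0.11, 95% confidence interval 0.003 to 0.477) had an adjusted p of 0.32 from edgeR and 0.30 from DESeq2, and the exact permutation test gave p = 0.0794. Without control replicate 5 the adjusted p was 0.055 from edgeR and 0.0037 from DESeq2, the only DESeq2 fit with a library left out that called it. Mybph lies on the opposite strand over 20.1% of the exon bases of Adora1, and whether counting used strand is not given. Mybph itself had 0 to 12 counts per library and Adora1 at least 1180. The effect of the overlap on the Adora1 counts and on its level per kilobase was not tested.

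Ptger3 encodes the EP3 receptor for prostaglandin E2. Its mRNA ranged from 52.0 to 112 CPM in control and from 51.7 to 75.3 CPM in Stat5Adipoq BAT, and all Stat5Adipoq libraries but the lowest lay within the range of the controls. The means were 79.5 ± 24.1 CPM in control and 63.3 ± 10.2 in Stat5Adipoq BAT, and the log2 fold change was -0.33 (standard error 0.18, 95% confidence interval -0.73 to 0.07, adjusted p = 0.44 from edgeR). Npy1r encodes the Y1 receptor for neuropeptide Y, which sympathetic nerves release with noradrenaline. With an average of 13.1 counts per library it was 0.766 to 1.42 CPM in control and 0.646 to 1.28 CPM in Stat5Adipoq BAT, and its log2 fold change was -0.12 (standard error 0.26, 95% confidence interval -0.70 to 0.45, adjusted p = 0.89 from edgeR). The intervals of both genes leave room for a decrease, down to a log2 fold change of -0.73 and -0.70. Adra2a encodes the α2A-adrenergic receptor, through which noradrenaline opposes its own β-adrenergic effect. Its counts were 0, 5, 2, 9 and 5 in control replicates 1 to 5 and 2, 0, 0, 0 and 0 in Stat5Adipoq replicates 1 to 5, which sum to 21 and 2. The 23 counts were too few for the filter, so that no fold change is given.

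**Figure D3:**
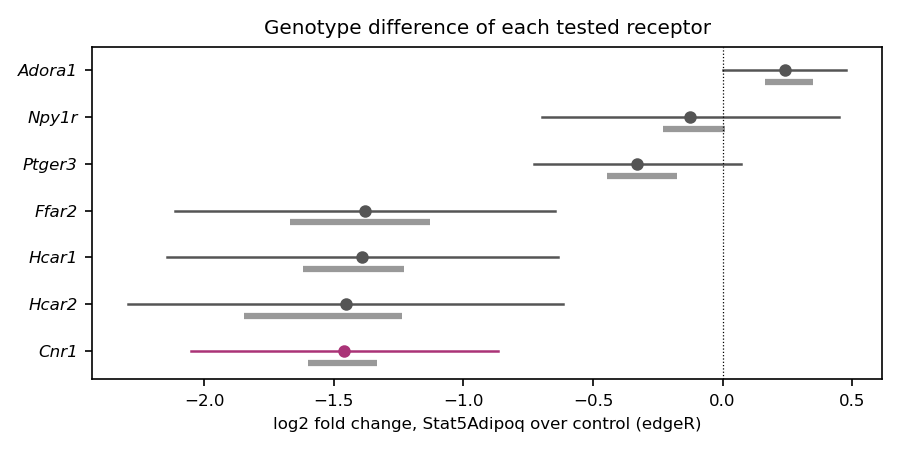
Log2 fold change of the 7 tested receptors (x axis, Stat5Adipoq over control) from edgeR as points, with 95% confidence intervals as thin lines, Cnr1 as the called gene in purple, and the range of the fold change when each library was left out in turn as a thick grey bar. Cnr1, Hcar1, Hcar2 and Ffar2 lie between -1.46 and -1.38 with intervals that overlap, while Ptger3, Npy1r and Adora1 lie between -0.33 and 0.24.

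Levels were compared between receptors as CPM per kilobase of annotated exon, with the exons of all GENCODE transcripts of a gene joined. This length was 5688 bases for Ptger3, whose longest transcript has 3577, and 3285 bases for Hcar1 by either measure. The order of Ptger3 and Hcar1 and the shares of the sum depend on the length used, and other lengths were not tested. In control BAT the order was Adora1 (31.3 CPM per kilobase), Hcar1 (19.8), Ptger3 (14.0), Hcar2 (5.66), Ffar2 (1.42), Npy1r (0.317), Cnr1 (0.224) and Adra2a (0.0665). The library ranges of Adora1 and Hcar1, of Hcar1 and Ptger3, and of Npy1r and Cnr1 overlapped. Within single control libraries Adora1 lay above Hcar1 in 5 of 5, by a factor of 1.15 to 3.05, while Hcar1 lay above Ptger3 in 4 of 5, not in control replicate 3, and Npy1r above Cnr1 in 4 of 5, not in control replicate 1. In Stat5Adipoq BAT, Adora1 stood first at 37.0 CPM per kilobase, followed by Ptger3 (11.1), Hcar1 (7.48), Hcar2 (2.05), Ffar2 (0.540), Npy1r (0.291), Cnr1 (0.0834) and Adra2a (0.00694). There the ranges of Ptger3 and Hcar1 overlapped, as did those of Ffar2 and Npy1r, although the first of each pair was the higher in all 5 libraries. Adora1 made up 36.8% to 53.2% of the summed receptor level per kilobase in control libraries and 57.0% to 70.6% in Stat5Adipoq libraries, and Hcar1 made up 17.5% to 33.7% and 9.22% to 17.2%. The summed level itself was 46.1 to 90.2 CPM per kilobase in control and 51.7 to 70.1 in Stat5Adipoq BAT, so that the genotypes overlapped in the sum.

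**Figure D4:**
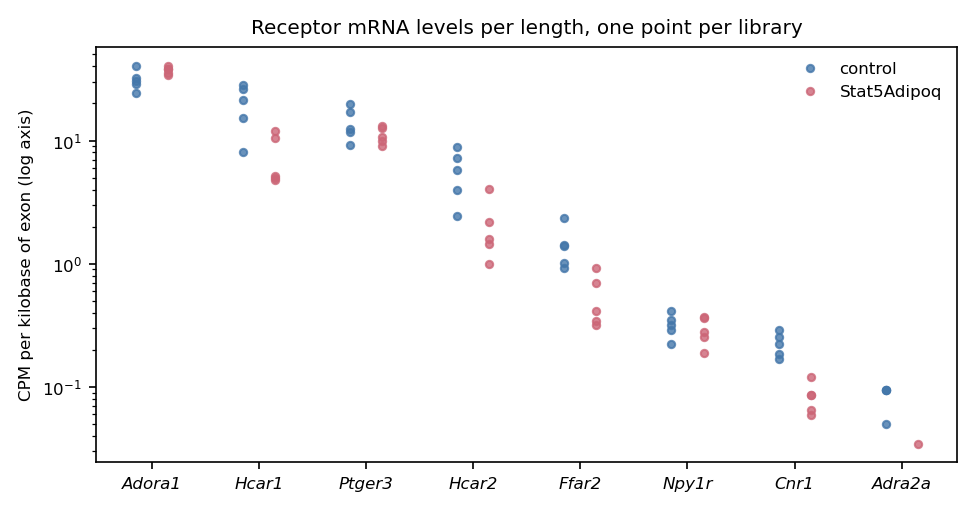
Level of the 8 receptors as CPM per kilobase of exon (y axis, log scale) in control (blue) and Stat5Adipoq (red) libraries, in the order of the control means. Points are libraries, and those with no Adra2a count, 1 control and 4 Stat5Adipoq, cannot be drawn on a log axis. Adora1 leads in both genotypes, and Hcar1 lies at 19.8 in control and 7.48 in Stat5Adipoq BAT on average.

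Genes that resembled Adora1 over the libraries were Myo10, Fry and Mnat1, at a root mean square difference of 0.071, 0.080 and 0.081 among 4170 genes, and those most like Ptger3 were Fzd5, Rgs19 and Bcl7a, at 0.128, 0.144 and 0.162 among 1793 genes. The median difference was 0.283 for Adora1 and 0.429 for Ptger3. Cnr1, Ffar2, Npy1r and Adra2a averaged under 50 counts and were not compared in this way.

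Of 20 other Gi-coupled receptors, 8 were tested and none was called by edgeR or by DESeq2, and none had an unadjusted p below 0.05. Their median log2 fold change was -0.07. The lists were drawn up by name, and no measure of lipolysis divided them. Whether receptors of this list, Ffar4 with a log2 fold change of -0.06 among them, also restrain lipolysis was not tested. The 2 most abundant were S1pr1, a receptor for sphingosine 1-phosphate, at 82.5 ± 14.7 and 88.2 ± 18.9 CPM, and Ffar4, a receptor for long-chain fatty acids, at 39.4 ± 24.3 and 37.9 ± 17.1 CPM. The remaining 12, among them Ffar3, Adra2b and Adra2c, did not pass the filter.

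Of 20 Gs-coupled receptors, which act against the Gi-coupled group, 14 were tested. Sctr alone was called by edgeR, which called 2.71% of all tested genes. Sctr, the receptor for the gut hormone secretin, was 12.1 ± 3.17 CPM in control and 5.06 ± 0.317 CPM in Stat5Adipoq BAT, and its log2 fold change of -1.26 (adjusted p = 0.0028 from edgeR) passed the threshold in all 18 alternative settings. DESeq2 added Tshr, the thyrotropin receptor, with a log2 fold change of -0.50 and an adjusted p of 0.024 against 0.10 from edgeR. Adrb3, the main β-adrenergic receptor of adipocytes, was 386 ± 58.5 CPM and 420 ± 64.7 CPM, with an adjusted p of 0.71 from edgeR. Pth1r, the receptor for parathyroid hormone, was 61.5 ± 11.7 CPM and 46.0 ± 10.3 CPM, with an adjusted p of 0.22 from edgeR. Of the 14, 11 had a log2 fold change below 0, and the median of the list was -0.305.

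**Figure D5:**
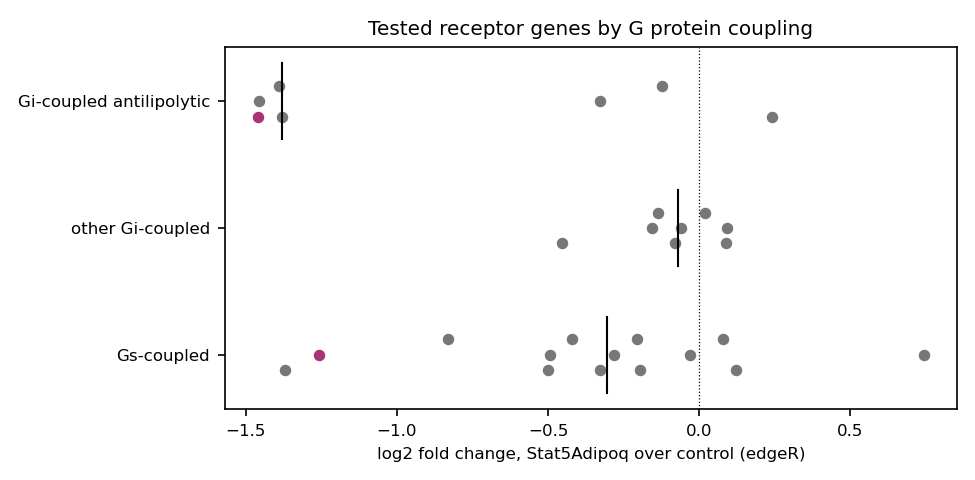
Log2 fold change (x axis, Stat5Adipoq over control, edgeR) of the antilipolytic receptors, the other Gi-coupled receptors and the Gs-coupled receptors that were tested, with 1 point per gene and a vertical line at the median of each list. The medians are -1.38, -0.07 and -0.305, and the purple points are the genes called by edgeR, Cnr1 and Sctr, with all other genes in grey.

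Genes that make, move or break down the ligands of these receptors were examined in 5 lists, of which 43 of 49 genes were tested. Together 3 were lower and 3 higher by edgeR, against 1.31% and 1.40% of all tested genes. The median log2 fold change was -0.055, and 14 had an unadjusted p below 0.05 from edgeR, against 15.2% of all tested genes. The prostaglandin E list held 2 of the 3 lower genes and 1 of the 3 higher ones. Ptges, a prostaglandin E synthase, fell from 25.1 ± 2.65 to 13.2 ± 4.02 CPM (adjusted p = 0.020 from edgeR), and Pla2g16, the adipocyte phospholipase that releases arachidonic acid, fell from 307 ± 44.9 to 208 ± 30.1 CPM (adjusted p = 0.027 from edgeR). The Pla2g16 call held in 10 of 10 DESeq2 fits and in 4 of 10 edgeR fits with a library left out, the latter being those without control replicate 3 or 5 or Stat5Adipoq replicate 1 or 2. Abcc4, a membrane pump that exports prostaglandins and cAMP, rose from 36.6 ± 5.31 to 57.7 ± 4.10 CPM (adjusted p = 0.0032 from edgeR). Ptges2 was 133 and 126 CPM and was not called.

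Slc29a1, the nucleoside transporter that carries adenosine across the membrane, was the only one of 10 adenosine genes called and rose from 133.5 ± 5.78 to 171.6 ± 12.9 CPM (adjusted p = 0.0089 from edgeR). Adk, which removes adenosine by phosphorylation, was 96.3 and 91.6 CPM and was not called. In the list for lactate and ketone bodies, 8 of 9 genes were tested. Ldha, a subunit of the enzyme that makes lactate, was 1471 and 1452 CPM, and the lactate transporter gene Slc16a1 was 567 and 634 CPM, neither of them called.

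In the list for catecholamines and neuropeptide Y, with 6 of 10 genes tested, Maoa, a monoamine oxidase, rose from 16.0 ± 0.679 to 20.4 ± 1.24 CPM (adjusted p = 0.023 from edgeR), a call held in 10 of 10 DESeq2 fits with a library left out and in 3 of 10 edgeR fits, those without control replicate 3 or 5 or Stat5Adipoq replicate 1. Maob was 153 and 195 CPM with an adjusted p of 0.060 from edgeR and 0.0081 from DESeq2. None of the 10 endocannabinoid genes was called by edgeR, where 1 had an unadjusted p below 0.05. This was Abhd12, which degrades lysophosphatidylserine and 2-arachidonoylglycerol, with a log2 fold change of -0.24 and an adjusted p of 0.078 from edgeR, and DESeq2 called it with an adjusted p of 0.029. Mgll, the lipase that degrades 2-arachidonoylglycerol, was 1333 and 1319 CPM, and Gde1, which takes part in making anandamide, was 196 and 187 CPM.

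Downstream of the receptors, the genes for 2 inhibitory G-protein subunits changed in opposite directions. Gnai1, a Gαi subunit, fell from 55.5 ± 4.90 to 23.8 ± 3.79 CPM (log2 fold change -1.21, adjusted p = 7.5e-05 from edgeR). Gnao1, the Gαo subunit, rose from 90.7 ± 10.8 to 125 ± 5.37 CPM (log2 fold change 0.47, adjusted p = 0.0097 from edgeR). Both were called in all 18 alternative settings, and for both the libraries of the genotypes did not overlap. Gnai2 and Gnai3 had log2 fold changes of -0.02 and -0.04 and were not called. Gnas, the stimulatory subunit, was 4244 ± 362 and 5280 ± 470 CPM, with an adjusted p of 0.053 from edgeR and 0.0050 from DESeq2, and Rgs5 was 416 and 462 CPM. Gnai1 and Gnao1 were the 2 genes called by edgeR of 30 tested among G-protein subunits and their regulators, against 2.71% of all tested genes. The median log2 fold change of this list was -0.03.

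Among 9 tested adenylyl cyclases, Adcy5 fell from 12.3 ± 1.67 to 5.03 ± 2.00 CPM (adjusted p = 0.0093 from edgeR). The 2 most abundant, Adcy6 at 407 and 364 CPM and Adcy3 at 299 and 206 CPM, were not called. Among 16 genes of the lipolytic machinery, Prkaca, the catalytic subunit of protein kinase A, fell from 474 ± 22.4 to 405 ± 19.4 CPM (adjusted p = 0.043 from edgeR), a call that none of the 10 edgeR fits with a library left out kept. DESeq2 gave it an adjusted p of 0.0013 and called it in all 10 of its fits with a library left out. Pnpla2, the first lipase of triglyceride breakdown, was 3838 ± 150 and 3334 ± 221 CPM, with an adjusted p of 0.098 from edgeR and 0.011 from DESeq2. Fabp4, a fatty acid carrier, was 8560 and 7681 CPM and was not called. In each of these lists 1 gene was called by edgeR, against 2.71% of all tested genes. The median log2 fold change was -0.16 for the cyclases and -0.01 for the lipolytic genes.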

How the data were processed

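BAT RNA of 5 control and 5 Stat5Adipoq mice was sequenced as 50-base single reads. The authors aligned reads with STAR 2.5.0b to GRCm38 and counted them over exons with featureCounts 1.5.0-p1, and the deposited values are raw counts per gene. The strand setting is not given in the sources used here. The authors' deposited comparison table holds DESeq2 fold changes and p-values and was used only for gene symbols. Samples were grouped by their labels.

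Genes with a size factor normalized row sum above 45 were tested with edgeR 4.0.16 (quasi-likelihood F test, TMM, no covariate, Benjamini-Hochberg over 13568 genes, threshold 0.05). Exact two-sided permutation tests used log2 CPM with a prior count of 2 and 252 assignments, with 0.0079 as the smallest p. Permutation p-values were not adjusted. Alternatives were DESeq2 1.42.0, limma-voom 3.58.1, DESeq2 size factors, library size only, no filter, a row sum above 200, robust dispersions, a replicate block and leaving out each library. DESeq2 without single libraries was added after the data were seen. On simulated counts with 100 changed genes per size, edgeR recovered 98% at a log2 change of 1 and 99% at 2, and 4.37% of its calls were false. DESeq2 recovered 99% at both sizes with 10% false calls. The changed genes were drawn from those averaging at least 50 counts per library. Cnr1, Ffar2 and Npy1r averaged fewer, so that recovery at their levels was not measured. Each library is a mouse. Of 45 pairs of libraries, 0 differed by sampling noise only. The depth was 8488129 to 19514904 counts per library.

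Genes named are the receptors, Stat5a and Stat5b, and of each list the called genes and the 2 most abundant. Some of these are left out and not reported here. Tshr, Abhd12, Gnai2, Gnai3 and Mybph were added after their values were seen. Members and lists were chosen with earlier results of these data known. Positions and promoters are from RefSeq on GRCm38.p6, and exon lengths from GENCODE.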

Additional observations from a re-analysis of the deposited data

Results flagged for a closer look

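In 12 of 98 groups of 5 libraries 1 library lay far from the other 4, judged by its gap to the nearest library as a share of the range against a critical value of 0.71. Chance gives about 1 in 20, which is 4.9 groups. Among the receptors this was Adra2a, at 0.168 CPM in Stat5Adipoq replicate 1 and 0 in the other 4. Control replicate 4 stood apart in total counts, with 19514904 against at most 10936218 in the other controls, in Gnao1, with 71.9 CPM against 92.4 to 99.8 CPM, in summed macrophage markers, with 211.5 CPM against 157.0 to 170.8 CPM, and in summed neutrophil markers, with 8.90 CPM against at most 2.59 CPM. Control replicate 5 was high in Pth1r, at 81.6 CPM against 54.0 to 61.7 CPM, and in Maoa, at 17.2 CPM against 15.5 to 15.9 CPM. Control replicate 3 held 3824 CPM of summed skeletal muscle markers against 4.70 to 308.7 CPM. In Stat5Adipoq BAT, replicate 4 was low in Abcc4, at 50.5 CPM against 58.6 to 60.7 CPM. Replicate 3 was low in Pnpla2, at 2948 CPM against 3370 to 3493 CPM, and in macrophage markers, at 133.2 CPM against 167.1 to 173.3 CPM. Replicate 1 held 85.4 CPM of summed liver markers against 31.2 to 33.7 CPM.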

How the results depend on the processing

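The number of receptors called lower was 1 in the main comparison, 4 with DESeq2, 3 without a filter, 2 with limma-voom, robust dispersions or a replicate block, and 1 to 4 with edgeR and 2 to 4 with DESeq2 when a library was left out. It was 1 with a row sum above 200, where that receptor was Ffar2 and Cnr1 was not tested. None was called higher, except 1 by DESeq2 without control replicate 5, which gives a range of 0 to 1. Hcar1 passed the threshold with DESeq2 (-1.40), no filter (-1.39) and the replicate block (-1.40), and Hcar2 with DESeq2 (-1.46). Ffar2 passed with DESeq2 (-1.39), limma-voom (-1.41), no filter (-1.38), a row sum above 200 (-1.38), robust dispersions (-1.38) and the block (-1.40). Cnr1 missed it with the block (-1.43, adjusted p = 0.052 from edgeR).

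When single libraries were left out, log2 fold changes ranged from -1.60 to -1.33 for Cnr1, -1.62 to -1.23 for Hcar1, -1.85 to -1.24 for Hcar2, -1.67 to -1.13 for Ffar2, 0.165 to 0.348 for Adora1, -0.445 to -0.176 for Ptger3 and -0.23 to 0.009 for Npy1r, whose sign reversed at 0.009 without control replicate 4. The called genes numbered 0 to 0 for other Gi receptors, 1 to 3 for Gs receptors, 4 to 8 for ligand genes, 2 to 3 for Gi proteins, 1 to 1 for cyclases, 0 to 1 for lipolysis and 185 to 442 over all genes. DESeq2 gave 2 Gs receptors, 2 lipolysis genes and 660 genes in all against 368, and lipolysis genes were 0 without a filter and with the block. The cause of these changes was not tested. Replicate numbers did not pair libraries, since the deviations of same-numbered libraries correlated between -0.232 and 0.088, and the block gave 273 calls. At 23 counts in all, depth left Adra2a untested.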
